A study of Oryza sativa Indica Group with 6 samples.

Results

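The genes described here encode the potassium, sodium, phosphate and ammonium carriers of rice that bear a number of the HAK, HKT, PHT1 or AMT series. They were chosen by name alone: each gene whose symbol or synonym in the NCBI rice gene table is HAK or HKT with a number, PHT1- with a number, or AMT1-, AMT2- or AMT3- with a number. Of the 52 genes found, 39 were paired in the platform table with a transcript cluster of their own (the set of probes that reads 1 transcript), out of 14662 genes so paired. The measured genes were 21 of 25 HAK, 1 of 7 HKT, 9 of 11 PHT1 and 8 of 9 AMT genes. The other 13, *HAK11*, *HAK14*, *HAK16*, *HAK19*, *HKT1;1*, *HKT1;3*, *HKT1;4*, *HKT2;1*, *HKT2;3*, *HKT2;4*, *PHT1-3*, *PHT1-13* and *AMT2-3*, were not analysed here.

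Rice of the *indica* cultivar MR219 was used in both groups. T3 seedlings that overexpress *Abp57*, which encodes an auxin-binding protein (OxAbp57, 3 arrays), were compared with wild-type seedlings (control, 3 arrays), all grown for 10 days on MS medium, which the sample records give in diluted form. The transgene entered through *Agrobacterium*, and its promoter and the number of transformation events behind the seedlings are not given in the sources used here. Each array held the RNA of a separate biological replicate of at least 3 whole seedlings, root and shoot together. Signals are log2 values of the authors' RMA normalization, in which a difference of 1 is a fold of 2, and signals of different genes are not ranked against each other because each cluster has its own probes. Their precision is limited by the number of arrays.

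Plants take up potassium, phosphate and ammonium at the root surface and move them between organs through families of membrane carriers. HAK proteins carry potassium, several of them with high affinity when the supply is low, beside potassium channels of the AKT type. HKT proteins carry sodium, some of them with potassium. PHT1 proteins bring in phosphate together with protons, and AMT proteins bring in ammonium. In roots many of these genes respond to the supply of the nutrient they carry, and MS medium supplies all of these nutrients.

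*HAK5*, a high-affinity carrier of potassium uptake and of potassium transfer to the shoot in rice, was the only one of the 39 genes past a fold of 2 with an unadjusted p under 0.05 in the limma fit, and it fell. Its log2 signal was 5.31, 6.51 and 6.84 in OxAbp57 replicates 1, 2 and 3, against 7.96, 8.00 and 6.34 in control replicates 1, 2 and 3. Control replicates 1 and 2 stood above every OxAbp57 array, while control replicate 3 lay among the OxAbp57 arrays, so the genotypes overlapped. The log2 difference of OxAbp57 minus control was -1.21 (standard error 0.52, 95% interval -2.40 to -0.02, a fold of 2.32), with an unadjusted p of 0.0468 and an adjusted p of 0.721 from limma. In whole-seedling RNA, fewer cells that use a gene and less of its RNA per cell cannot be told apart. The call rested on single arrays. Without OxAbp57 replicate 1 the difference was -0.76 (unadjusted p = 0.170 from limma), and without OxAbp57 replicate 2 it was -1.36 (0.0675). Leaving out OxAbp57 replicate 3 gave -1.52 (0.0327). Without control replicate 1 it was -0.95 (0.138), without control replicate 2 it was -0.93 (0.151), and without control replicate 3 it was -1.76 (0.00236). On all arrays, the unpaired one-way ANOVA of the study's methods gave an unadjusted p of 0.166.

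Over all 41770 clusters 0.508% passed the same fold and unadjusted p in either direction (0.172% lower), against 1 of the 39 carriers (2.56%). None of the 39 was higher at these thresholds, by limma or by the methods' ANOVA. At an unadjusted p under 0.05 with any fold, limma had 3 of the 39 (7.69%), beside 6.88% of all clusters. *HAK12* and *HAK24* were higher, where 3.27% of clusters were, and *HAK5* was lower, where 3.62% were. The ANOVA had 2 of the 39 at this p (5.13%), beside 6.41% of all clusters by the same test, *HAK20*, which was higher, and *PHT1-11*, which was lower. None of the 39 passed an adjusted p under 0.05 by either test, which limma's fit gave for 0.0144% of clusters. The 3 signals of one genotype lay wholly above the 3 of the other in 6 of the 39 (15.4%), beside 13.0% of all clusters. Of the 6, 3 were higher in OxAbp57 and 3 lower, beside 5.51% and 7.53% of all clusters. The shares at an unadjusted p under 0.05 and without overlap were near those of all clusters. The 95% interval of the log2 difference stayed between -1 and 1 for 34 of the 39 genes, and it reached past a fold of 2 for *HAK5*, *HAK17*, *HAK18*, *HAK24* and *HAK27*.

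**Figure D1:**
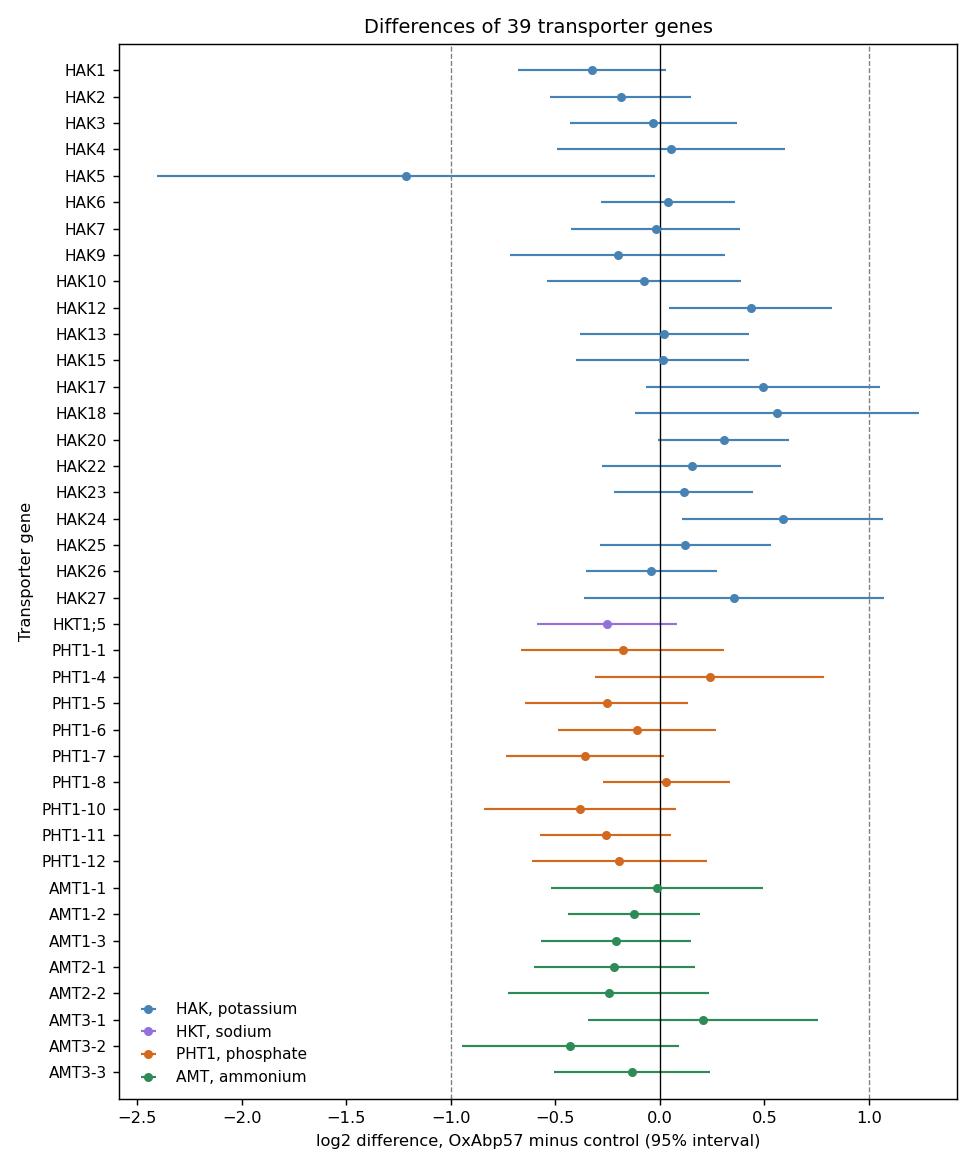
Log2 difference of OxAbp57 minus control for the 39 measured carriers (points, limma fit on 3 arrays per genotype) with 95% intervals (bars), coloured by family, with dashed lines at a fold of 2. *HAK5* alone lies beyond a fold of 2, and the intervals of 34 genes stay between the dashed lines.

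Among the HAK genes, *HAK24* and *HAK12* were higher in OxAbp57 at an unadjusted p under 0.05, both at a fold below 2. *HAK24*, a HAK family member, had 6.83, 6.74 and 6.57 in OxAbp57 replicates 1, 2 and 3, against 6.11, 5.74 and 6.52 in control replicates 1, 2 and 3. All OxAbp57 arrays were higher, but control replicate 3 came within a short distance of OxAbp57 replicate 3. The log2 difference was 0.59 (standard error 0.21, unadjusted p = 0.0221, adjusted p = 0.679 from limma), and a second cluster of *HAK24* had 0.50 (0.25), with overlapping genotypes. *HAK12*, which in rice retrieves sodium from the xylem of roots, had 6.57, 6.37 and 6.12 in OxAbp57 and 5.92, 5.74 and 6.09 in the control. These genotypes were also apart, by little, with a log2 difference of 0.44 (standard error 0.17, unadjusted p = 0.0328, adjusted p = 0.709 from limma). By the methods' ANOVA the unadjusted p was 0.0696 for *HAK24* and 0.0569 for *HAK12*. For both genes limma's unadjusted p was over 0.05 without OxAbp57 replicate 1 or 2 or control replicate 1 or 2, at differences of 0.40 to 0.58 for *HAK24* and 0.33 to 0.44 for *HAK12*.

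*HAK18*, which in rice returns potassium through the phloem, had 7.93, 8.01 and 8.05 in OxAbp57 replicates 1, 2 and 3, against 7.11, 7.00 and 8.19 in control replicates 1, 2 and 3. The OxAbp57 arrays were close together, and the control was divided, with replicate 3 above all OxAbp57 arrays. Its log2 difference was 0.56 (standard error 0.30, unadjusted p = 0.0931, adjusted p = 0.751 from limma), and without 1 array it ranged from 0.35, without control replicate 2, to 0.94, without control replicate 3. *HAK27* had 3.25, 4.24 and 4.60 in OxAbp57 and 3.72, 3.74 and 3.57 in the control. Here the spread was in OxAbp57, where replicate 1 was the lowest of all arrays and the other replicates the highest, with a log2 difference of 0.36 (standard error 0.31). It was 0.75 without OxAbp57 replicate 1 (unadjusted p = 0.00350 from limma) and 0.07 without OxAbp57 replicate 3 (0.817). *HAK1*, the other well-studied high-affinity potassium carrier of rice roots, had 7.04, 7.08 and 7.27 in OxAbp57 and 7.33, 7.67 and 7.36 in the control. It was lower on every OxAbp57 array, like *HAK5* in direction but with a log2 difference of -0.32 (standard error 0.15, unadjusted p = 0.0669, adjusted p = 0.737 from limma).

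*HAK17* and *HAK20* had log2 differences of 0.49 (standard error 0.24) and 0.30 (0.14). *HAK20* had 3.54, 3.38 and 3.39 in OxAbp57 and 3.25, 3.10 and 3.04 in the control, with the genotypes apart. They overlapped for *HAK17*, at 4.51, 4.31 and 3.64 in OxAbp57 and 3.64, 3.91 and 3.44 in the control. Its difference was 0.75 without OxAbp57 replicate 3 (unadjusted p = 0.00677 from limma) and 0.31 without OxAbp57 replicate 1 (0.247). For *HAK2*, *HAK3*, *HAK4*, *HAK6*, *HAK7*, *HAK9*, *HAK10*, *HAK13*, *HAK15*, *HAK22*, *HAK23*, *HAK25* and *HAK26* the differences lay between -0.20, for *HAK9*, and 0.15, for *HAK22*. Among these, *HAK10* encodes a potassium carrier of the vacuolar membrane in rice. Over the 21 HAK genes the median log2 difference was 0.04, with 13 positive and 8 negative, beside a median of -0.03 over all clusters. Of the HAK genes, *HAK4*, *HAK20*, *HAK26* and *HAK27* were among the 25% of clusters with the lowest mean signal, and the other 35 carriers of the 4 families were above that limit.

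*HKT1;5*, the sodium carrier also known as SKC1 that withdraws sodium from the xylem of rice roots, was the only HKT gene measured. It had 3.78, 4.08 and 3.88 in OxAbp57 replicates 1, 2 and 3, against 4.28, 4.06 and 4.16 in control replicates 1, 2 and 3. OxAbp57 replicate 2 lay just above control replicate 2, so the genotypes overlapped. The log2 difference was -0.25 (standard error 0.15, 95% interval -0.59 to 0.08), and it did not pass (unadjusted p = 0.119, adjusted p = 0.773 from limma).

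**Figure D2:**
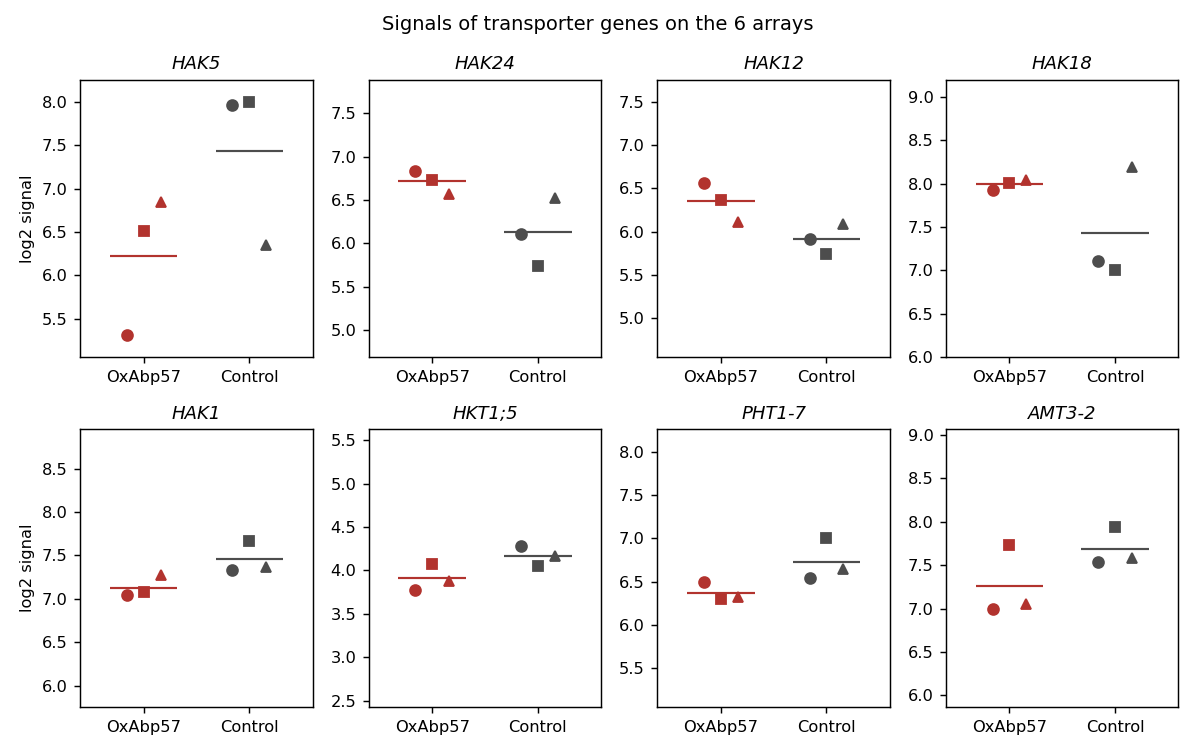
Log2 signals of 8 carriers in OxAbp57 (red, left) and control (grey, right), with replicates 1, 2 and 3 as circle, square and triangle and the mean as a line. Each panel spans the same number of log2 units, centred on its own gene. Control replicate 3 lies apart from the other controls for *HAK5* and *HAK18*.

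None of the 9 PHT1 genes passed a fold of 2 with an unadjusted p under 0.05, and none had an unadjusted p under 0.05 in the limma fit on all arrays. The methods' ANOVA had 1 at that p, *PHT1-11*, a carrier that rice uses for phosphate delivered by mycorrhizal fungi. *PHT1-11* had 3.83, 3.96 and 3.69 in OxAbp57 replicates 1, 2 and 3, against 4.08, 4.10 and 4.09 in control replicates 1, 2 and 3. It was lower on every OxAbp57 array, by a log2 difference of -0.26 (standard error 0.14, unadjusted p = 0.0910 from limma). The *PHT1-11* signals lay near 3.91, the limit of the 25% of clusters with the lowest mean signal. Its controls had a standard deviation of 0.013. *PHT1-7* was the other PHT1 gene with the genotypes apart, at 6.49, 6.30 and 6.32 in OxAbp57 and 6.54, 7.01 and 6.65 in the control. Control replicate 1 stood only a little above OxAbp57 replicate 1, and the log2 difference was -0.36 (standard error 0.16, unadjusted p = 0.0602, adjusted p = 0.730 from limma). It was -0.45 without control replicate 1 (unadjusted p = 0.0415 from limma) and -0.22 without control replicate 2 (0.208).

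*PHT1-10* had 6.56, 7.09 and 6.91 in OxAbp57 replicates 1, 2 and 3, against 7.36, 7.43 and 6.92 in control replicates 1, 2 and 3. As for *HAK5*, control replicates 1 and 2 were high and control replicate 3 lay among the OxAbp57 arrays, with a log2 difference of -0.38 (standard error 0.20). Without 1 array it ranged from -0.54, without control replicate 3, to -0.23, without OxAbp57 replicate 1. *PHT1-4*, which takes part in phosphate uptake of rice roots, had 6.08, 7.01 and 6.63 in OxAbp57 and 6.38, 6.48 and 6.14 in the control. OxAbp57 replicate 1 was the lowest of the 6 arrays and the other OxAbp57 arrays the highest. The log2 difference was 0.24 (standard error 0.24, 95% interval -0.31 to 0.79). It was 0.49 without OxAbp57 replicate 1 (unadjusted p = 0.0383 from limma), 0.02 without OxAbp57 replicate 2 (0.933) and 0.14 without control replicate 3 (0.603).

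The PHT1 genes that carry much of the phosphate uptake of rice roots differed little. *PHT1-1* had 6.99, 7.42 and 7.63 in OxAbp57 and 7.27, 7.49 and 7.80 in the control. Its arrays varied by more within each genotype than between them, and the log2 difference was -0.18 (95% interval -0.66 to 0.31). *PHT1-8* had 8.11, 8.28 and 8.19 in OxAbp57 and 8.24, 8.10 and 8.15 in the control, all 6 close together, with a log2 difference of 0.03 (95% interval -0.27 to 0.34). *PHT1-6* had -0.11 (-0.49 to 0.27). *PHT1-5* and *PHT1-12* had -0.25 and -0.19. *PHT1-12* is the neighbour of *PHT1-1* on chromosome 3, with 0 genes between them in the NCBI table. Over the 9 genes the median was -0.19, with 7 negative and 2 positive, where 55.7% of all clusters were negative. *PHT1-2*, a low-affinity phosphate carrier, is spelled in the gene table in a way the naming rule does not take and was not counted. Its log2 difference was 0.18 (standard error 0.22). A spelling that the rule does take, PHT1-2, is a synonym of the gene counted here as *PHT1-4*, which was named by its Os-prefixed synonym.

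None of the 8 AMT genes passed a fold of 2 with an unadjusted p under 0.05, and none had an unadjusted p under 0.05 in the limma fit on all arrays or by the methods' ANOVA. *AMT3-2* had the largest difference, with 6.99, 7.73 and 7.05 in OxAbp57 replicates 1, 2 and 3, against 7.54, 7.94 and 7.58 in control replicates 1, 2 and 3. OxAbp57 replicate 2 lay among the controls and the other OxAbp57 arrays below them. The log2 difference was -0.43 (standard error 0.23, 95% interval -0.95 to 0.09, unadjusted p = 0.0934 from limma). It was -0.66 without OxAbp57 replicate 2 (unadjusted p = 0.00917 from limma), and with a replicate block limma's p was 0.0281. The difference was -0.30 without OxAbp57 replicate 1 or control replicate 2 (unadjusted p = 0.265 from limma for each). The methods' ANOVA gave an unadjusted p of 0.186. *AMT2-2* had 5.49, 5.68 and 5.79 in OxAbp57 and 6.07, 6.17 and 5.45 in the control, where replicate 3 was the lowest of all arrays. Its log2 difference was -0.25 (standard error 0.21), with a range without 1 array from -0.47, without control replicate 3, to -0.11, without control replicate 2. It was -0.16 without control replicate 1 and also without OxAbp57 replicate 1. *AMT2-1* had 6.33, 6.63 and 6.20 in OxAbp57 and 6.80, 6.55 and 6.46 in the control, with overlap and a log2 difference of -0.22 (standard error 0.17). It was -0.34 without OxAbp57 replicate 2 and -0.12 without OxAbp57 replicate 3 or control replicate 1.

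*AMT3-1*, an ammonium carrier known in rice for its induction in mycorrhizal roots, was the only AMT gene with a positive difference. Its signals were 6.17, 6.59 and 6.31 in OxAbp57 and 6.30, 5.64 and 6.52 in the control. The difference of 0.20 (standard error 0.24) came with a low control replicate 2 and was -0.05 without it. The *AMT1* genes encode the high-affinity ammonium carriers of rice. *AMT1-1* had 6.92, 7.32 and 7.72 in OxAbp57 and 7.26, 7.17 and 7.57 in the control. Both the lowest and the highest of these arrays were OxAbp57, and the log2 difference was -0.01 (95% interval -0.52 to 0.50). The gene table gives both names, AMT1-2 and AMT1-3, to each of 2 neighbouring genes, which were told apart here by their Os-prefixed synonyms. The neighbours *AMT1-2* and *AMT1-3* on chromosome 2 had -0.12 and -0.21 (standard errors 0.14 and 0.16). *AMT3-3* had -0.13. The median over the 8 genes was -0.17, with 7 negative and 1 positive.

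The range over the 6 arrays, which holds both the replicates and the genotypes, had a median of 0.60 log2 units for the 39 carriers and 0.60 for all clusters. Among the 39 *HAK5* had the widest range, 2.69, followed by *HAK27* with 1.36 and *HAK18* with 1.19. *PHT1-8* had the narrowest, 0.18. The median deviation of a family from its genes' own means over the 6 arrays stayed between -0.04 and 0.11 in OxAbp57 and between -0.08 and 0.06 in the control for HAK. For PHT1 it was -0.16, -0.00 and -0.13 in OxAbp57 replicates 1, 2 and 3, against 0.09, 0.06 and -0.03 in the 3 controls in the same order. For AMT it was -0.19, 0.08 and -0.03 in OxAbp57 and 0.05, 0.09 and 0.09 in the control, and OxAbp57 replicate 1 was thus the lowest array in both families. It was also the lowest over all clusters, at -0.05, where the other arrays were between -0.0006 and 0.03.

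**Figure D3:**
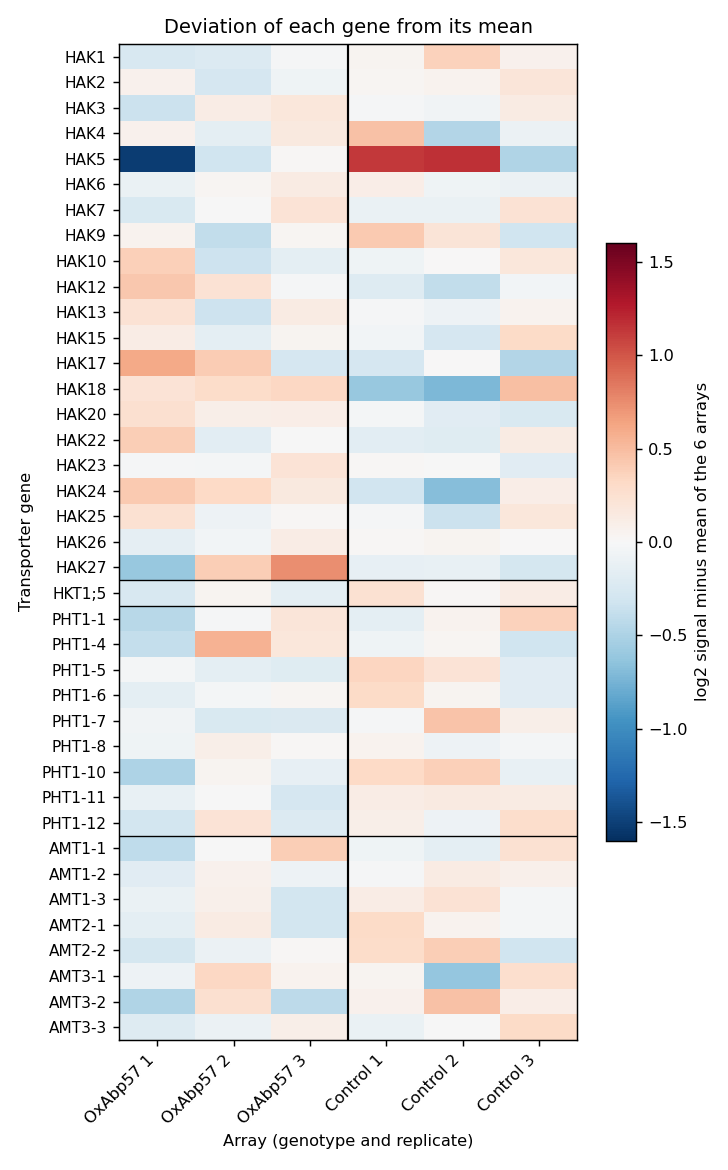
Log2 signal of each of the 39 carriers minus its mean over the 6 arrays, with a column for each array (OxAbp57 left, control right) and horizontal lines between the HAK, HKT, PHT1 and AMT families. The strongest colours are those of *HAK5* in OxAbp57 replicate 1 and control replicates 1 and 2.

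Control replicate 3 stood apart from the other arrays, at 64.4 on the first principal component, which held 39.0% of the variance. OxAbp57 replicate 1 lay at the other end, at -41.2, and the arrays between them ran from -27.3 to 14.1. On the second component, with 27.2% of the variance, OxAbp57 replicate 1 was also at an end, at -44.9, opposite control replicate 2 at 42.6. The RNA integrity number in the paper was the same for sample 3 of both genotypes and lower for the other samples. Its part in these positions was not tested. The dividing tissue markers, 11 measured genes of 16 listed, were low in control replicate 3. Their log2 difference was negative for 10 and positive for 1, where 55.7% of all clusters were negative, with a list median of -0.24. Their median deviation was 0.26, -0.38 and -0.27 in OxAbp57 replicates 1, 2 and 3, against 0.63, 0.67 and -1.01 in the 3 controls in the same order. Their summed linear signal ranged from 366 to 578.5 in OxAbp57 and from 251 to 751 in the control. *HAK5* had 6.34 in control replicate 3, against 7.96 and 8.00 in control replicates 1 and 2. Its lowest array was OxAbp57 replicate 1, at 5.31. The part of these markers in the *HAK5* signals was not tested. Without control replicate 3, 7 of the 39 carriers (17.9%) had an unadjusted p under 0.05 by limma, beside 11.8% of all clusters in the same fit. As log2 differences, *HAK18* (0.94), *HAK24* (0.79) and *HAK12* (0.52) were higher and *HAK5* (-1.76), *PHT1-10* (-0.54), *AMT2-2* (-0.47) and *PHT1-5* (-0.41) lower. None of them passed an adjusted p under 0.05 there, and *HAK5* alone passed a fold of 2.

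Markers of the organs in the sample were also measured, since a whole seedling can hold more or less root. Of 10 measured shoot markers (40 listed) 9 had a positive difference, where 44.3% of all clusters did, with a list median of 0.48. By limma 3 of the 10, *RCA*, *PSAG* and *CHLH*, were higher at an unadjusted p under 0.05, where 3.27% of all clusters were. The summed linear signal of the 10 shoot markers ranged from 13508 to 15322 in OxAbp57 and from 8455 to 11983 in the control, without overlap. *RBCS*, at log2 signals of 11.66 to 13.05, weighs most in that sum. Its 11.66 was that of control replicate 3, while controls 1 and 2 had 12.76 and 12.72. The median deviation of the 10 shoot markers was 0.40, 0.03 and 0.07 in OxAbp57 replicates 1, 2 and 3. For the 3 controls it was 0.03, -0.10 and -0.26, in the same order. OxAbp57 replicate 2 and control replicate 1 were thus nearly level. The extremes were OxAbp57 replicate 1 and control replicate 3, also the ends of the first principal component. Taken singly, the genotypes were apart for 4 of the 10 (40%), beside 13.0% of all clusters, and overlapped for the others. The 7 measured root markers (23 listed) had a median of 0.01, 4 positive and 3 negative. Of these *CASP1*, of the Casparian strip, had 0.79 and *EXPB5*, an expansin gene, had -0.44, both at an unadjusted p under 0.05 by limma, as for 6.88% of all clusters in either direction. The summed linear signal of the root markers ranged from 471 to 574 in OxAbp57 and from 389 to 581 in the control. None of these lists had a marker past a fold of 2 with an unadjusted p under 0.05, by limma or by the ANOVA, where 2 root, 3 shoot and 0 dividing tissue markers had an unadjusted p under 0.05 by limma and 1, 2 and 0 by the ANOVA. No marker was at 0, since log2 signals of this kind have no zero, and the part of these markers in the differences of the carriers was not tested.

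Genes that work with the carriers were taken from 3 lists. Of 5 measured genes of potassium and sodium transport (25 listed), none passed a fold of 2 with an unadjusted p under 0.05 by limma or the ANOVA, and 2 had an unadjusted p under 0.05 by each test, 1 higher and 1 lower, with a list median of 0.18. At that p limma had 6.88% of all clusters and the ANOVA 6.41%, a background that holds for each of the 3 lists. *CIPK23* and *AKT1* belong together in potassium uptake: the kinase CIPK23 activates AKT1, the potassium channel of rice roots. *CIPK23* had 8.20, 8.29 and 8.28 in OxAbp57 replicates 1, 2 and 3, against 9.15, 9.08 and 9.03 in control replicates 1, 2 and 3. Every OxAbp57 array was lower, and the gap between the genotypes was far wider than the spread within them. The log2 difference was -0.83 (standard error 0.13, 95% interval -1.13 to -0.54), with an unadjusted p of 0.000171 and an adjusted p of 0.183 from limma, below a fold of 2. *AKT1* had 7.13, 6.99 and 7.00 in OxAbp57 and 6.37, 6.43 and 6.64 in the control. The channel gene was thus higher on every OxAbp57 array, by 0.56 (standard error 0.14, unadjusted p = 0.00406, adjusted p = 0.558 from limma). Both kept an unadjusted p under 0.05, by limma or the ANOVA, under every alternative tried. The other 3 measured genes of this list, *TPKB*, *CBL4* and *CIPK24*, had log2 differences of 0.04, 0.18 and 0.23.

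Of 13 measured genes of phosphate signalling and transport (42 listed), none passed a fold of 2 with an unadjusted p under 0.05 by limma or the ANOVA, and 2 had an unadjusted p under 0.05 by limma, both lower. The ANOVA had 1 other gene at that p, *SPX4*, at a log2 difference of 0.24. The 2 by limma were *PHO1-1* and *PHO1-3*, of the PHO1 family of phosphate exporters. *PHO1-1* had 3.63, 3.89 and 4.22 in OxAbp57 and 4.46, 4.62 and 4.18 in the control, with a log2 difference of -0.51 (standard error 0.19, unadjusted p = 0.0311, adjusted p = 0.704 from limma). *PHO1-3* had 3.60, 3.19 and 3.30 in OxAbp57 and 4.19, 4.48 and 3.45 in the control, with -0.68 (standard error 0.26, unadjusted p = 0.0320, adjusted p = 0.706 from limma). The *PHO1-3* cluster was among the 25% with the lowest mean signal. By the ANOVA their unadjusted p was 0.0768 for *PHO1-1* and 0.109 for *PHO1-3*. In both genes control replicate 3 lay among the OxAbp57 arrays. Without control replicate 2 the differences were -0.41 for *PHO1-1* and -0.46 for *PHO1-3*, at unadjusted p of 0.104 and 0.116 from limma. The p of *PHO1-1* was also over 0.05 without OxAbp57 replicate 1 or 2 or control replicate 1, and that of *PHO1-3* without OxAbp57 replicate 2 or 3 or control replicate 1. The list median was -0.01. *PHO1-2*, which loads phosphate into the xylem of rice roots, had 0.25. The regulators *PHR1* and *PHR2*, which switch on phosphate starvation genes, had -0.01 and 0.13, and the SPX genes, whose proteins restrain PHR regulators, had -0.48 to 0.24 over 5 measured members.

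Of 9 measured genes of nitrogen uptake and ammonium assimilation (40 listed), none passed a fold of 2 with an unadjusted p under 0.05 by limma or the ANOVA, and 1 had an unadjusted p under 0.05 by each test. This was *GLN1-3*, a cytosolic glutamine synthetase, the enzyme that fixes ammonium into glutamine. It had 5.43, 5.88 and 5.63 in OxAbp57 and 6.38, 6.44 and 6.53 in the control. It was lower on every OxAbp57 array, by a log2 difference of -0.80 (standard error 0.16, unadjusted p = 0.000862, adjusted p = 0.357 from limma). *GLN1-2*, another cytosolic form, had -0.06 (0.32), and *GLN2*, the plastid form, had 0.67 (0.34). The list median was -0.07, with *NAR2-1*, the partner protein of nitrate carriers, at -0.00.

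**Figure D4:**
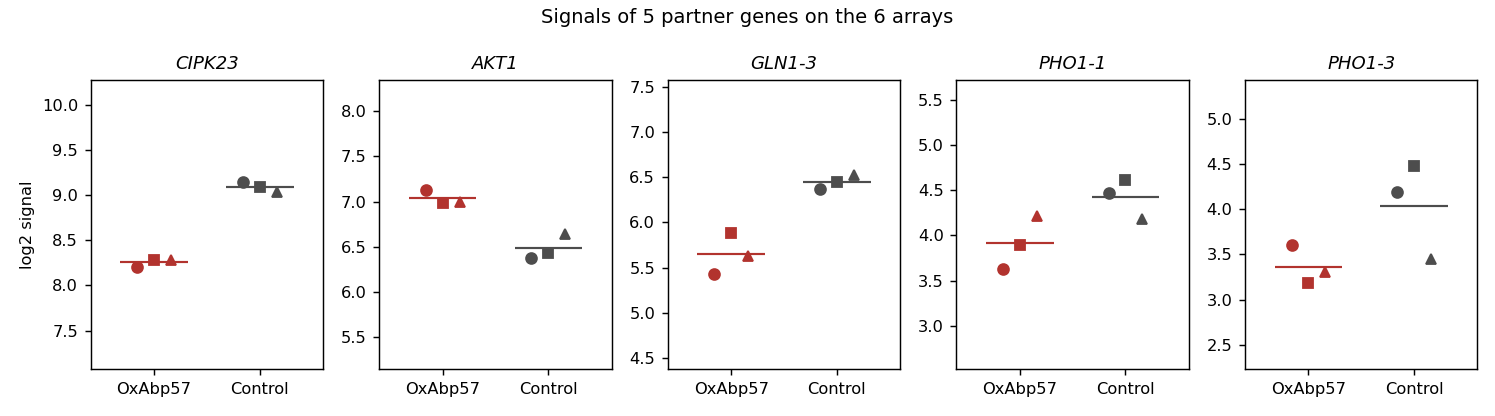
Log2 signals of 5 genes that work with the carriers, in OxAbp57 (red, left) and control (grey, right), with replicates 1, 2 and 3 as circle, square and triangle and the mean as a line. The genotypes are apart for *CIPK23*, *AKT1* and *GLN1-3* and overlap for *PHO1-1* and *PHO1-3*.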

How the data were processed

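The authors hybridised the RNA to Affymetrix Rice (Cn) Gene 1.0 ST arrays and deposited log2 signals of 41770 transcript clusters on 6 arrays, made with RMA in Affymetrix Expression Console, whose version the sources used here do not give. RMA subtracts background, equalises the distributions of the arrays and combines probes into 1 value per cluster. Background correction could not be repeated from these values. Because the distributions of the arrays were equalised, a shift shared by most genes would not be seen. Genes were named through the platform table and the NCBI rice table of assembly ASM3414082v1, a *japonica* rice, so no coordinates are given. A gene with several clusters was read from the cluster with the highest mean, and clusters paired with several genes were left out. No sequences are printed.

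OxAbp57 was compared with control by limma 3.58.1 in R 4.3.3 on all clusters, with no block, covariate or filter, two-sided, with Benjamini-Hochberg adjustment over all clusters. The script was tested on simulated data. Rose and fell mean a fold over 2 with an unadjusted p under 0.05, the thresholds of the study. Named carriers were those past an unadjusted p under 0.05, and in each family the 3 largest differences and the 2 widest ranges. Of the lists, genes past that p were named. *HAK1* and further genes given with short values were added after their values were seen. The families, lists and tests were chosen with earlier results of these data known. The alternatives were the methods' unpaired one-way ANOVA with folds from means or Tukey's biweight, an intensity trend, removal of the 25% dimmest clusters, a repeated quantile step, a replicate block, cyclic loess, weights for arrays, only clusters with 1 gene, means over the clusters of a gene, and each array left out. Figures were drawn with matplotlib 3.10.9.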

Additional observations from a re-analysis of the deposited data

How the results depend on the processing

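*HAK5* kept a negative difference under all 16 alternatives, from -1.76 to -0.76, but failed the combined threshold under 8. In 5 of these only the p was lost, and without OxAbp57 replicate 1, control replicate 1 or control replicate 2 the fold was also under 2. Carriers lower at that threshold numbered 1 by limma and 0 by the methods' ANOVA with either fold, with cyclic loess and with only clusters of 1 gene, and 0 to 1 without 1 array. None was higher under any alternative, and none passed an adjusted p under 0.05. Carriers at an unadjusted p under 0.05 numbered 3 (7.69%, beside 6.88% of all clusters), but 7 with array weights (17.9%, beside 10.7%), 5 with a replicate block (12.8%, beside 8.39%) and 0 to 7 without 1 array, from 0 without control replicate 2 (beside 4.45%) to 7 without control replicate 3 (17.9%, beside 11.8%). *AMT3-1*, at 0.20, ranged from -0.052, without control replicate 2, to 0.39, without control replicate 3. Median differences without 1 array ranged from -0.021 to 0.14 for HAK (0.04 on all arrays) and from -0.24 to -0.10 for PHT1 (-0.19). *CIPK23*, *AKT1* and *GLN1-3* kept direction and an unadjusted p under 0.05 in 16 of 16 alternatives, at -0.90 to -0.80, 0.50 to 0.64 and -0.92 to -0.70.

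Over all clusters, the fold and unadjusted p gave 140 higher and 72 lower, but 27 and 41 lower by the ANOVA with plain and biweight folds, 122 lower with array weights, and 69 higher and 40 lower with only clusters of 1 gene. With any single array removed, counts ran over 104 to 222 higher and 54 to 196 lower clusters. At the adjusted p 6 passed, 0 by the ANOVA with either fold, 12 with an intensity trend or quantile normalization, 13 without the dimmest clusters or with means over clusters, 26 with array weights, 15 with the replicate block, and 0 to 151 with an array removed, of which 151 belong to the removal of control replicate 3. The block rests on shared numbers alone: same-numbered arrays deviated with correlations of 0.35 (number 1), -0.11 (number 2) and 0.21 (number 3), and OxAbp57 replicate 2 correlated best with control replicate 3.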
